A study of Mus musculus with 8 samples.

Results

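The mRNAs of the proteasome were followed through 3 kinds of RNA sample from mouse embryonic stem (ES) cells: total RNA of the lysate (Input), RNA recovered with an antibody against the poly(A)-binding protein PABP1, and RNA recovered with an antibody against GFP. Members were all gene names on the array made of Psm, a letter from a to g and a number, with the brightest probe standing for each gene. This gave 44 names of 27961 on the array: 18 of the core particle (Psma and Psmb), 20 of the cap (Psmc and Psmd), 4 of the activators (Psme), the inhibitor Psmf1, and Psmc3ip, which matches by name only. All 44 were tested: in at least 1 group, each had a probe well above background on all of the group's arrays.

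The cells were a re-derived Dazl-GFP transgenic ES line grown on γ-irradiated feeder fibroblasts in medium with 15% serum, leukemia inhibitory factor and the 2i inhibitors (1 µM of the MEK inhibitor PD0325901 and 3 µM of the GSK3β inhibitor CHIR99021), which all groups shared. The series set out to find RNA bound by the germ cell RNA-binding protein DAZL. RNA was immunoprecipitated (IP) under native conditions, and 1-colour Agilent arrays measured 3 Input, 2 PABP1 IP and 3 GFP IP samples. The sources used here do not state whether GFP is joined to DAZL in this line or reports the gene's activity. They also do not say that replicates were separate cultures. P-values therefore speak only of the variation among these arrays, part of which may be technical. An IP with a control antibody is not among the samples analysed here, and RNA retained without specific binding was not measured.

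The proteasome degrades proteins marked with ubiquitin. Its core particle is a barrel of alpha and beta rings, with the proteolytic sites inside the beta rings. The cap recognises, unfolds and feeds in the substrate: its base holds a ring of ATPases and scaffold subunits, and its lid holds the enzyme that removes ubiquitin. Activators of the Psme genes can take the place of the cap. PABP1 binds the poly(A) tails of cytoplasmic mRNAs and takes part in their translation and stability.

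Levels are log2 signals relative to each array's 75th percentile and are compared only for the same probe. Differences come from limma fitted on all 14728 tested genes and all 8 arrays, with Benjamini-Hochberg adjustment over all of them and a threshold of 0.05 on the adjusted p. The errors given after ± are standard errors of that fit. Per array, 41.5% to 52.6% of spots lay well above background, with none saturated, and arrays correlated across genes at 0.975 to 0.993 within groups and 0.855 to 0.932 between groups. The scale of each comparison was not centred on its median gene, which lay at −0.51 for GFP IP over Input, 0.24 for PABP1 IP over Input and −0.67 for GFP IP over PABP1 IP. The 3 comparisons share their samples pairwise, so values of a gene in them are given side by side and are not independent of each other.

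In PABP1 IP over Input, proteasome mRNAs were mostly higher, and the core particle stood further up than the cap. Of the 44 members, 26 were higher, 6 were lower and 12 did not pass the test. Over all tested genes 59.6% were called, 34.3% higher and 25.4% lower. The median member difference was 0.75, or 0.51 above the median gene. After quantile normalization it was 0.20, with 17 members higher and 13 lower. Shares of all tested genes under that setting are not given here, so these counts are not compared with them. Relative to the median gene of that setting, the core median was 0.41 and the cap median −0.28. With the percentile taken over probes detected on all arrays, 19 members were higher and 8 lower, against 28.3% and 31.3% of all tested genes. Among the 18 core particle mRNAs, 14 were higher, none was lower in limma, and the median difference was 1.00. The 18 differences were all positive on this scale, whereas 17 were positive with the percentile taken over probes detected on all arrays or without Input array 3, and 13 after quantile normalization, where 10 were higher and 3 lower. Among the 20 cap mRNAs, 8 were higher and 5 were lower, to be read against the 34.3% and 25.4% of all tested genes. The cap median difference was 0.27, or 0.03 relative to the median gene, and stayed at 0.27 without PABP1 IP array 2. With the 3 cap assembly chaperones left out, 5 of 17 cap mRNAs were higher and 5 were lower. Their median was 0.20, or −0.04 relative to the median gene, so the cap was not mostly higher.

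**Figure D1:**
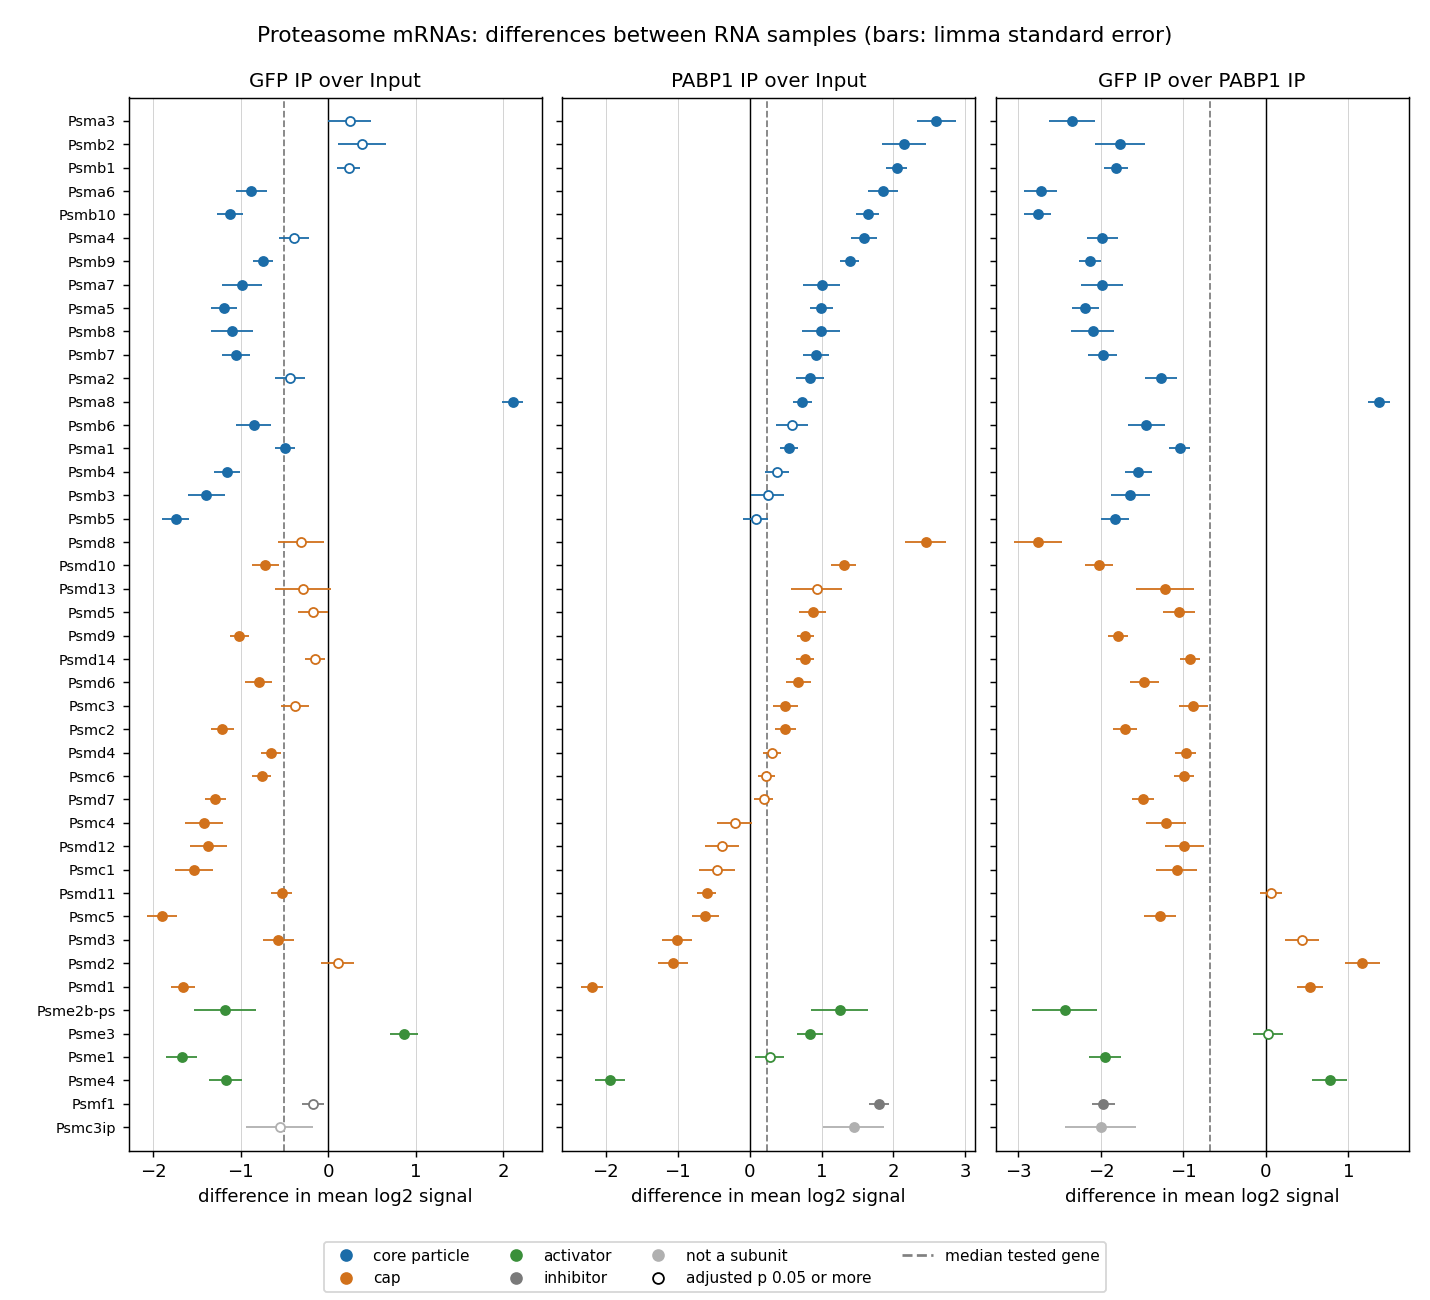
Each row is 1 of the 44 members and each panel 1 comparison; points are differences in mean log2 signal from limma with standard errors as bars, colours give the part of the proteasome, open points did not pass the adjusted p of 0.05, and the dashed line is the median of the 14728 tested genes. In the middle panel the blue core particle points lie from 0.08 to 2.60, while the orange cap points spread from −2.19 to 2.45.

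The alpha subunits form the outer rings that gate the barrel. All 8 alpha ring mRNAs were called higher in the PABP1 IP, with a median of 1.00, but not under every setting. After quantile normalization Psma1 (0.063, adjusted p = 0.727), Psma5 (0.13, adjusted p = 0.393) and Psma7 (0.16, adjusted p = 0.666) lost the call and Psma2 turned to −0.055. Psma1 also lost it with median scaling (adjusted p = 0.0521), when arrays were scaled on probes detected everywhere (0.31, adjusted p = 0.079) and within slide 2 (0.39, adjusted p = 0.202). Psma2 lost it without PABP1 IP array 1 (adjusted p = 0.0631). With the normexp background correction Psma3, Psma4 and Psma6 passed and the other 5 did not. Psma3 had the highest difference of the 44 members. It read 1.92, 2.07 and 2.60 on the Input arrays, 4.56 and 5.03 on the PABP1 IP arrays, and 2.59, 2.09 and 2.66 on the GFP IP arrays. Both PABP1 IP arrays thus lay above all others, while GFP IP and Input overlapped. Its difference was 2.60 ± 0.28 for PABP1 IP over Input (limma adjusted p = 0.000201) and 0.25 ± 0.25 for GFP IP over Input (adjusted p = 0.402). Psma6 was the next highest of the alpha ring, at 1.85 ± 0.20 (adjusted p = 0.000225), from Input values of 4.43 to 4.96 and PABP1 IP values of 6.37 and 6.78.

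The 10 beta ring mRNAs had a median of 0.96, with 6 higher and 4 not called. Psmb2 and Psmb1, which encode beta subunits without proteolytic activity of their own, were among the highest. Psmb2 read 0.97 to 1.59 on Input and 3.16 and 3.72 on PABP1 IP, a difference of 2.15 ± 0.31 (adjusted p = 0.000775). Psmb1 read 4.69 to 4.93 on Input and 6.76 and 6.92 on PABP1 IP, a difference of 2.05 ± 0.15 (adjusted p = 4.37e-05). For both genes the PABP1 IP arrays lay above all Input and GFP IP arrays, while GFP IP and Input overlapped.

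Of the 3 standard catalytic subunits of the beta ring, 1 passed the test in PABP1 IP over Input, and 2 did with slide as a block. Psmb7, the trypsin-like site, was higher in the PABP1 IP by 0.92 ± 0.18 (adjusted p = 0.00334). Psmb6, the caspase-like site, had a difference of 0.60 ± 0.22 that missed the threshold (adjusted p = 0.0522) and passed it with slide as a block (0.62, adjusted p = 0.0343). Psmb5, the chymotrypsin-like site, had a difference of 0.08 ± 0.17 (adjusted p = 0.703): its Input arrays read 7.62, 7.38 and 7.21 and its PABP1 IP arrays 7.56 and 7.41, within the Input range. After quantile normalization Psmb5 was lower in the PABP1 IP, at −0.65 (adjusted p = 0.00331).

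Psmb8, Psmb9 and Psmb10 encode the inducible catalytic subunits that replace the standard ones in the immunoproteasome, the form that trims peptides for antigen presentation. Psmb10 read 5.22, 5.01 and 5.11 on Input, 6.81 and 6.69 on PABP1 IP, and 4.25, 3.86 and 3.85 on GFP IP. Its 3 groups did not overlap, with PABP1 IP highest and GFP IP lowest. The PABP1 IP difference was 1.64 ± 0.16 for Psmb10 (adjusted p = 0.00015) and 1.39 ± 0.13 for Psmb9 (adjusted p = 0.000122). Psmb8, whose probe was well above background on 2 of the 3 Input arrays, was higher by 1.00 ± 0.26 (adjusted p = 0.0136), a call that was lost without PABP1 IP array 2 (adjusted p = 0.083), within slide 1 (adjusted p = 0.131) and when arrays were scaled on probes detected everywhere (adjusted p = 0.0525).

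**Figure D2:**
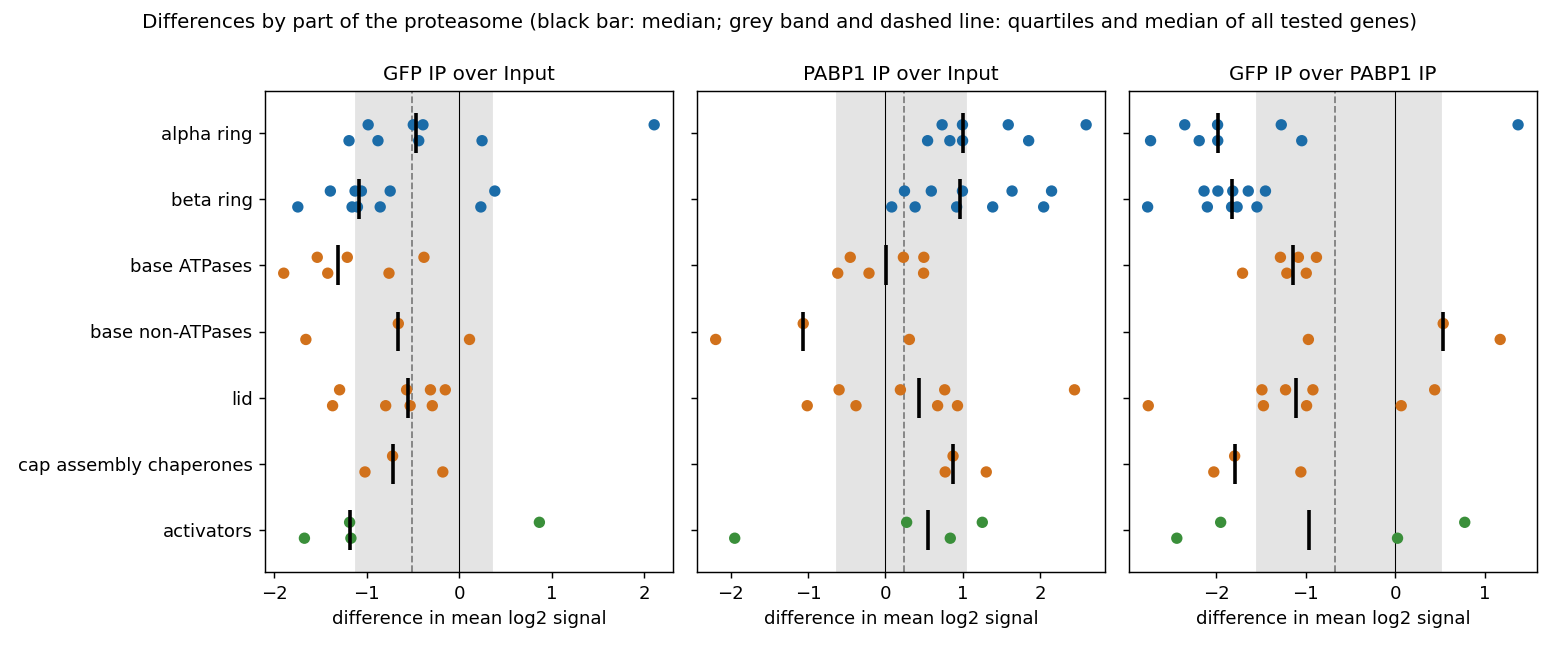
Differences in mean log2 signal of 42 members grouped by their place in the proteasome, 1 panel per comparison; black bars are group medians, and the grey band and dashed line are the quartiles and median of all tested genes. In the PABP1 IP over Input panel the ring subunits lie right of 0 while base ATPases and other base subunits lie to both sides or left of it.

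Within the cap, the medians of the parts ranged from −1.06 to 0.88 in PABP1 IP over Input. The 6 base ATPases, the motor that unfolds substrates, had a median of 0.01, with 2 higher (Psmc2 and Psmc3) and 1 lower (Psmc5). These 3 calls were small and were lost when single arrays were left out: Psmc2 without PABP1 IP array 1 (adjusted p = 0.097), Psmc3 without PABP1 IP array 2 (adjusted p = 0.212) and Psmc5 without PABP1 IP array 2 (adjusted p = 0.107). The 3 other base subunits had a median of −1.06. Psmd1 and Psmd2, the large scaffold subunits of the base, were lower. The ubiquitin receptor Psmd4 had a difference of 0.31 that missed the threshold (adjusted p = 0.0694, or 0.0332 with slide as a block). A second Psmd4 probe, well above background on 7 arrays, gave −2.42.

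Psmd1 was the lowest of all members in the PABP1 IP. It read 3.84, 3.56 and 3.45 on Input, 1.44 and 1.41 on PABP1 IP, and 1.87, 2.08 and 1.92 on GFP IP. Both IPs lay below every Input array, and the 3 groups did not overlap. The difference was −2.19 ± 0.15 for PABP1 IP over Input (adjusted p = 3.83e-05), −1.66 ± 0.14 for GFP IP over Input (adjusted p = 7.56e-05) and 0.54 ± 0.15 for GFP IP over PABP1 IP (adjusted p = 0.0159). The last of these was lost without PABP1 IP array 1 (adjusted p = 0.0645) or array 2 (adjusted p = 0.0663).

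Psmd2 read 6.42, 6.16 and 5.83 on Input, 5.24 and 4.91 on PABP1 IP, and 6.22, 6.43 and 6.09 on GFP IP. The PABP1 IP arrays were lowest, and GFP IP lay within or just above the Input range. The difference was −1.06 ± 0.21 for PABP1 IP over Input (adjusted p = 0.00381), 0.11 ± 0.19 for GFP IP over Input (adjusted p = 0.619) and 1.17 ± 0.21 for GFP IP over PABP1 IP (adjusted p = 0.00188). A second Psmd2 probe gave −0.04 in PABP1 IP over Input, 1.66 in GFP IP over Input and 1.70 between the IPs.

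The 8 lid mRNAs, among them the deubiquitinating enzyme Psmd14, had a median of 0.44 in PABP1 IP over Input, with 3 higher and 2 lower. Psmd8 stood at the top of the cap. It read 3.72, 3.57 and 2.95 on Input, 6.15 and 5.57 on PABP1 IP, and 3.05, 3.37 and 2.89 on GFP IP, so that PABP1 IP lay above all other arrays and GFP IP overlapped Input. The difference was 2.45 ± 0.29 over Input (adjusted p = 0.000327). Psmd3 lay at the other end of the lid, at −1.01 ± 0.20 (adjusted p = 0.0041), with Input at 9.33 to 9.47 and PABP1 IP at 8.28 and 8.51. Psmd11 was lower by less, at −0.60 ± 0.13 (adjusted p = 0.00698). In limma its call was lost with the normexp background correction (−0.29, adjusted p = 0.794) and median scaling (−0.52, adjusted p = 0.0552). It was also lost with the mean of its probes, including an undetected one (−0.45, adjusted p = 0.205). The Psmd11 difference was −0.52 without PABP1 IP array 2 and −0.57 on each slide alone.

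The assembly chaperones of the cap base, Psmd5, Psmd9 and Psmd10, help the ATPase ring form and are not part of the finished particle. All 3 were higher in the PABP1 IP, by 0.88, 0.77 and 1.31. Chaperones of the core particle carry older names on this array and were found through RefSeq. They were higher in the PABP1 IP as well: Psmg1 (listed as Dscr2) by 1.34 (adjusted p = 0.000168), Psmg2 (Tnfsf5ip1) by 1.13 (adjusted p = 0.000671) and Psmg3 (1810042K04Rik) by 1.11 (adjusted p = 0.000749). Psmg4 was not matched to the array, and the thymus form Psmb11 (listed as 5830406J20Rik) was not well above background on every array of any group.

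The core and cap medians differed by 0.73 in PABP1 IP over Input, by −0.13 in GFP IP over Input and by −0.84 between the IPs (GFP over PABP1). These are descriptions of medians over members, with no test. Taken array by array, as each gene's level minus its Input mean, the core median minus the cap median was −0.01, −0.02 and −0.02 on the Input arrays, 0.78 and 0.69 on the PABP1 IP arrays, and −0.11, −0.08 and −0.14 on the GFP IP arrays. The gap thus appeared on both PABP1 IP arrays. Subtracting each gene's Input mean keeps the Input values small by construction, so they are not an independent baseline. The spread within groups of 0.04 (SD) includes these Input values and is therefore not a yardstick for the gap. The authors' deposited table of group means held 15 core and 13 cap members. In the authors' deposited table the gap was 0.45 for the PABP1 IP and −0.09 for the GFP IP, each over Input, and −0.85 between the IPs. From the signals used here, the same 15 and 13 genes gave 0.50, −0.20 and −0.77.

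In GFP IP over Input most proteasome mRNAs were lower: 2 of 44 members were higher, 29 were lower and 13 did not pass. Over all tested genes 64.8% were called, 21.4% higher and 43.3% lower. The median member difference was −0.78, or −0.27 relative to the median gene. The direction of small differences here depended on the scaling: with arrays centred on their median spot, the median gene moved to 0.02, all-gene calls were 30.5% higher and 21.2% lower, and the members split into 4 higher and 14 lower. With the normexp background correction 1 member was higher (Psma8) and 4 were lower (Psmb5, Psmc5, Psmd1 and Psme1), and over all tested genes 4.04% were higher and 6.59% lower.

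Of 18 core mRNAs 1 was higher and 12 were lower, with a median of −0.87, and of 20 cap mRNAs none was higher and 14 were lower, with a median of −0.74. The cap had 1 difference above 0, that of Psmd2, whose adjusted p was 0.619 in limma. Across the parts, the medians ran from −1.32 for the base ATPases, of which 5 of 6 were lower, and −1.08 for the beta ring, of which 8 of 10 were lower, to −0.55 for the lid and −0.47 for the alpha ring.

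Psma8 had the highest difference of the 44 members, ahead of the activator Psme3, the other member that was higher. Psma8 encodes an alpha subunit of the testis form of the core particle, found in germ cells, where it replaces Psma7. Its probe was designed to the cDNA clone AK010717, which the array file names Psma8. It read 2.56, 2.36 and 2.27 on Input, 3.17 and 3.10 on PABP1 IP, and 4.56, 4.42 and 4.52 on GFP IP. The groups did not overlap, and GFP IP was highest on all 3 arrays. The difference was 2.11 ± 0.12 for GFP IP over Input (adjusted p = 2.21e-05), which is 4.31-fold, 0.73 ± 0.13 for PABP1 IP over Input (adjusted p = 0.00233) and 1.37 ± 0.13 for GFP IP over PABP1 IP (adjusted p = 8.28e-05). In GFP IP over Input it ranked 594 from the top of 14728 tested genes. With the normexp correction the first of these differences was 1.78 (adjusted p = 0.0358), while the other 2 lost their calls at 0.87 (adjusted p = 0.26) and 0.91 (adjusted p = 0.194).

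Psma7, the alpha subunit of the standard barrel in that place, read 6.97, 6.82 and 7.28 on Input, 7.78 and 8.26 on PABP1 IP, and 6.28, 5.64 and 6.19 on GFP IP. Its groups did not overlap either, with PABP1 IP highest and GFP IP lowest. The difference in GFP IP over Input was −0.98 ± 0.23 (adjusted p = 0.00746), but it was −0.45 with median scaling (adjusted p = 0.31) and −0.57 after quantile normalization (adjusted p = 0.106). In PABP1 IP over Input it was 1.00 ± 0.26 (adjusted p = 0.0121), lost without PABP1 IP array 2 (adjusted p = 0.0854) and after quantile normalization, as given above.

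**Figure D3:**
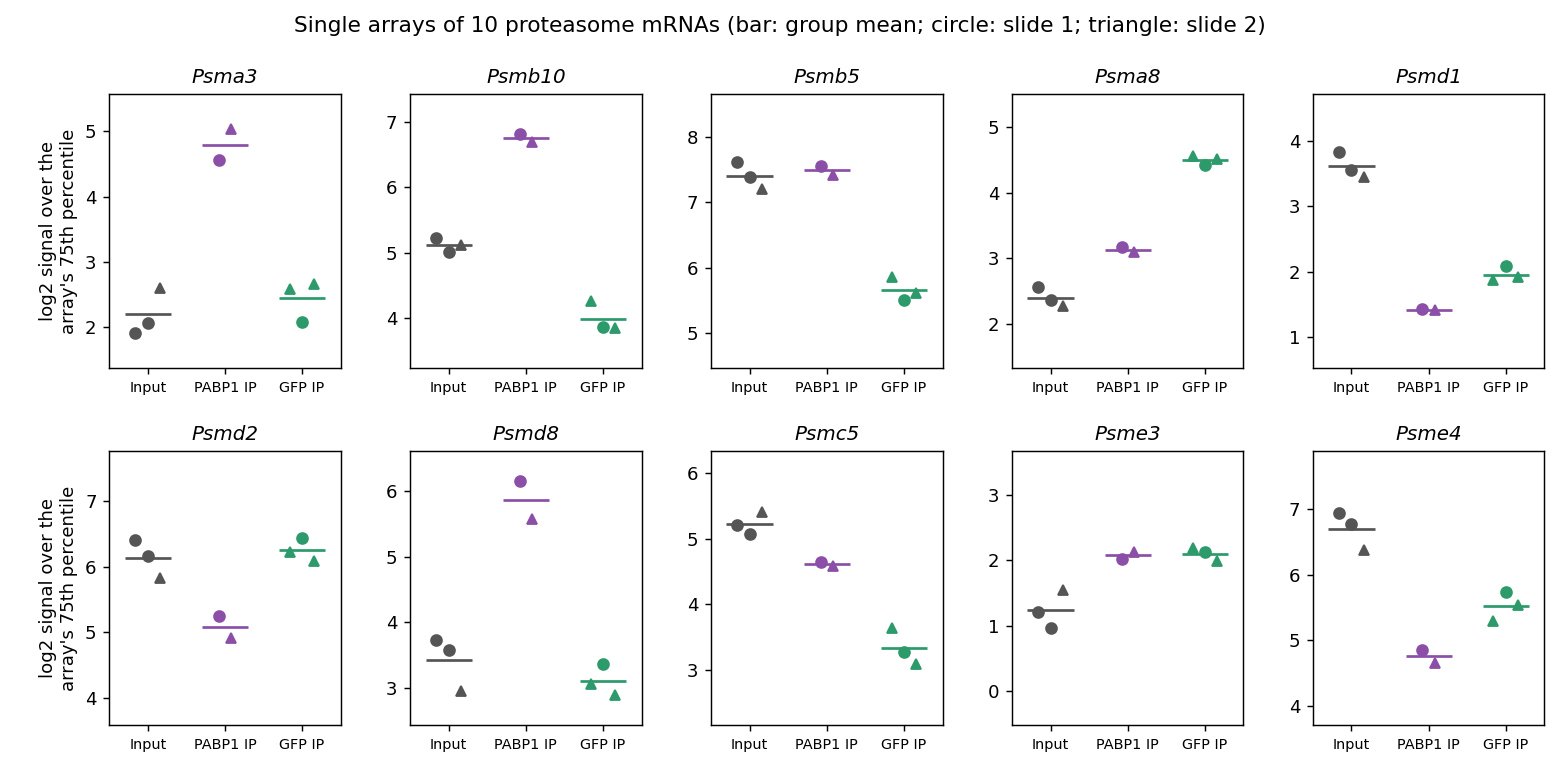
Level on each of the 8 arrays for 10 members, as log2 signal relative to the array's 75th percentile; bars are group means, circles are slide 1 and triangles slide 2, and each panel has its own range of equal span. Psma8 is highest on the 3 GFP IP arrays (4.42 to 4.56), Psma3 and Psmd8 on the 2 PABP1 IP arrays, and Psmd1 and Psme4 on the 3 Input arrays.

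The lowest members in GFP IP over Input came from several parts. Psmc5, a base ATPase, was at −1.90 ± 0.17 (adjusted p = 0.0001), with 5.21, 5.07 and 5.40 on Input and 3.64, 3.27 and 3.09 on GFP IP, but a second Psmc5 probe gave 0.03. Psmb5 was at −1.74 ± 0.15 (adjusted p = 9.49e-05), with 7.21 to 7.62 on Input and 5.85, 5.50 and 5.62 on GFP IP. Psmc1, another base ATPase, was at −1.53 ± 0.22 (adjusted p = 0.000776). No GFP IP array of these 3 genes reached an Input array by the probe used. They were named for their low difference, and 10219 of all 14728 tested genes had no overlap between GFP IP and Input. Among the catalytic subunits, Psmb6 was at −0.85 ± 0.20 (adjusted p = 0.00751) and Psmb7 at −1.06 ± 0.16 (adjusted p = 0.000992). The inducible forms were at −1.10 ± 0.24 for Psmb8 (adjusted p = 0.00509), −0.75 ± 0.12 for Psmb9 (adjusted p = 0.00123) and −1.13 ± 0.15 for Psmb10 (adjusted p = 0.000497). Under scaling to the median these 3 inducible forms kept their sign but no longer passed. Psmb6 also lost its call with median scaling (−0.32, adjusted p = 0.266), after quantile normalization (−0.080, adjusted p = 0.636) and within slide 2 (−0.52, adjusted p = 0.15).

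At the upper end of the core particle besides Psma8, Psmb2 (0.38 ± 0.27, adjusted p = 0.246), Psma3 and Psmb1 (0.23 ± 0.13, adjusted p = 0.153) did not pass the test in GFP IP over Input. All 3 overlapped between GFP IP and Input. The core chaperones split: Psmg3 was lower, at −1.23 (adjusted p = 0.000271), Psmg1 was lower, at −0.37 (adjusted p = 0.0308), and Psmg2 had a difference of 0.31 that did not pass (adjusted p = 0.0845).

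The 4 activators showed 4 different patterns. Psme1 encodes a subunit of the interferon-inducible activator that pairs with immunoproteasomes. It read 6.51, 6.25 and 5.91 on Input, 6.62 and 6.38 on PABP1 IP, and 4.63, 4.61 and 4.41 on GFP IP. GFP IP was lowest on all 3 arrays, and PABP1 IP overlapped Input. Its difference was −1.67 ± 0.18 for GFP IP over Input (adjusted p = 0.000196), 0.28 ± 0.20 for PABP1 IP over Input (adjusted p = 0.264) and −1.95 ± 0.20 for GFP IP over PABP1 IP (adjusted p = 0.000106).

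Psme3, the nuclear activator, was higher in both IPs than in Input. It read 1.20, 0.96 and 1.54 on Input, 2.02 and 2.13 on PABP1 IP, and 2.18, 2.13 and 1.98 on GFP IP, so that every IP array lay above every Input array while the IPs overlapped each other. The difference was 0.87 ± 0.16 for GFP IP over Input (adjusted p = 0.00291), 0.84 ± 0.18 for PABP1 IP over Input (adjusted p = 0.00595) and 0.03 ± 0.18 between the IPs (adjusted p = 0.904). On slide 2 alone the first value was 0.55 (adjusted p = 0.077) and the second 0.59 (adjusted p = 0.0945).

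Psme4, a large single-chain activator with roles in spermatogenesis and DNA repair, was lower in both IPs. It read 6.94, 6.77 and 6.38 on Input, 4.85 and 4.65 on PABP1 IP, and 5.30, 5.74 and 5.54 on GFP IP, without overlap between the groups. The difference was −1.95 ± 0.21 for PABP1 IP over Input (adjusted p = 0.000214), −1.17 ± 0.19 for GFP IP over Input (adjusted p = 0.00135) and 0.78 ± 0.21 for GFP IP over PABP1 IP (adjusted p = 0.0129). The last lost its call without PABP1 IP array 2 (adjusted p = 0.0714). A second Psme4 probe that was well above background on all arrays gave −0.71, 0.31 and 1.01 in the same order.

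The remaining activator name, Psme2b-ps, is that of a near-identical processed copy of Psme2, the partner of Psme1. No probe sequence was used, so whether this probe tells the pair apart was not checked, and its signal may come from either or both. Psme2b-ps was the most variable activator, with 6.59, 6.69 and 6.03 on Input, 8.19 and 7.18 on PABP1 IP, and 5.29, 5.71 and 4.74 on GFP IP. PABP1 IP lay above and GFP IP below all Input arrays. The difference was 1.25 ± 0.40 for PABP1 IP over Input (adjusted p = 0.0284) and −1.18 ± 0.35 for GFP IP over Input (adjusted p = 0.0215). The first was lost without Input array 3 (adjusted p = 0.0726) or PABP1 IP array 1 (adjusted p = 0.188), and the second without Input array 1 (0.0658) or 2 (0.0694) or GFP IP array 1 (0.0533) or 3 (0.0691), all adjusted p. The first was also lost after quantile normalization (0.40, adjusted p = 0.351), and the second with median scaling (−0.65, adjusted p = 0.0699). Between the IPs it was at −2.44 ± 0.40 (adjusted p = 0.00115).

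Psmf1, an inhibitor of the core particle, read −0.95, −0.92 and −1.07 on Input, 0.90 and 0.74 on PABP1 IP, and −1.34, −1.05 and −1.06 on GFP IP. PABP1 IP was highest, and the other 2 groups overlapped. The difference was 1.80 ± 0.14 for PABP1 IP over Input (adjusted p = 5.72e-05) and −0.17 ± 0.13 for GFP IP over Input (adjusted p = 0.264), but a second Psmf1 probe, to another transcript record, gave 0.06 and −0.75. Psmc3ip, a meiotic recombination factor that is not a proteasome subunit, was at 1.45 ± 0.43 in PABP1 IP over Input (adjusted p = 0.0218) and −0.56 ± 0.38 in GFP IP over Input (adjusted p = 0.232). Its PABP1 IP call was lost without Input array 1 (adjusted p = 0.0606), Input array 2 (adjusted p = 0.0643) or PABP1 IP array 2 (adjusted p = 0.138). With slide as a block both Psmc3ip differences passed, at 1.30 for PABP1 IP over Input (adjusted p = 6.0e-05) and −0.85 for GFP IP over Input (adjusted p = 0.000294); the latter also passed on slide 1 alone (−0.89, adjusted p = 0.0199) and slide 2 alone (−0.83, adjusted p = 0.0277).

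Set directly against each other, the IPs differed for nearly all proteasome mRNAs: 37 of 44 were lower and 4 were higher in GFP IP over PABP1 IP, and 3 did not pass. Over all tested genes 71.4% were called, 23.9% higher and 47.4% lower. The median member difference was −1.52, or −0.84 relative to the median gene. With arrays centred on their median spot, 6 members were higher and 34 lower, against 29.4% and 33.0% of all tested genes. In the core particle 17 of 18 were lower and Psma8 alone was higher, with a median of −1.90. After quantile normalization 11 were lower and the core median was −0.84, or −0.51 relative to the median gene of that setting. In the cap 16 of 20 were lower and 2 were higher, with a median of −1.07. The members higher in the GFP IP were Psma8, Psmd2, Psme4 and Psmd1, and without PABP1 IP array 2 the count was 2.

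Psmb10 was the lowest in this comparison, at −2.77 ± 0.16 (adjusted p = 1.31e-05), a 6.80-fold lower signal in the GFP IP. Psmd8 was at −2.76 ± 0.29 (adjusted p = 0.000129), Psma6 at −2.73 ± 0.20 (adjusted p = 2.78e-05), and Psma3 at −2.35 ± 0.28 (adjusted p = 0.000226). In all 4 genes both PABP1 IP arrays lay above the 3 GFP IP arrays. These genes were named for their low difference, and 11895 of all 14728 tested genes had no overlap between the IPs. Psmd3 had a difference of 0.44 that did not pass (adjusted p = 0.0867; 0.0406 with slide as a block), with overlap between the IPs. Psmb5, which the PABP1 IP did not separate from Input, was at −1.83 ± 0.17 between the IPs (adjusted p = 7.64e-05).

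Probes of the same gene did not always give the same difference. Of the 44 members 18 had more than 1 probe, and 14 had at least 2 that were well above background on all arrays. The signs of the probes differed for 5 of these 14 genes in GFP IP over Input, for 3 in PABP1 IP over Input and for 2 in GFP IP over PABP1 IP. For these 14 genes the median gap between a gene's probes was 0.91, 0.64 and 0.35 in GFP IP over Input, PABP1 IP over Input and GFP IP over PABP1 IP. Probes well above background on all arrays thus differed least where the IPs were set against each other. With 1 probe for most core genes, this check covered mostly the cap: in GFP IP over Input, probes of the same gene gave −0.76 and 1.29 for Psmc6, −0.15 and 1.36 for Psmd14, −1.02 and 0.44 for Psmd9, −1.17 and 0.31 for Psme4, and −1.90 and 0.03 for Psmc5.

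In PABP1 IP over Input the probes with opposite signs belonged to Psmc5 (−0.61 and 1.21), Psmc4 (−0.21 and 0.04) and Psmd7 (0.20 and −0.29). Between the IPs they belonged to Psmc6 (−0.99 and 1.01) and Psmd12 (−0.99 and 0.17), and the Psmd12 call by the brighter probe was lost without PABP1 IP array 1 (adjusted p = 0.0591). The probes of the other genes of the 14 kept 1 sign per comparison. Probes not well above background on every array were outside these counts. In GFP IP over PABP1 IP, such a Psmd7 probe, detected on 5 arrays but no PABP1 IP array, gave 2.21, against −1.49 for the brightest probe. A Psmd4 probe detected on 7 arrays gave 0.85, against −0.97. Left-out probes of Psmb8, Psmc2 and Psme4, detected on 4, 2 and 7 arrays, kept the brightest probe's sign there. Where probes differed in sign, the direction of the gene was not settled by these arrays.

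**Figure D4:**
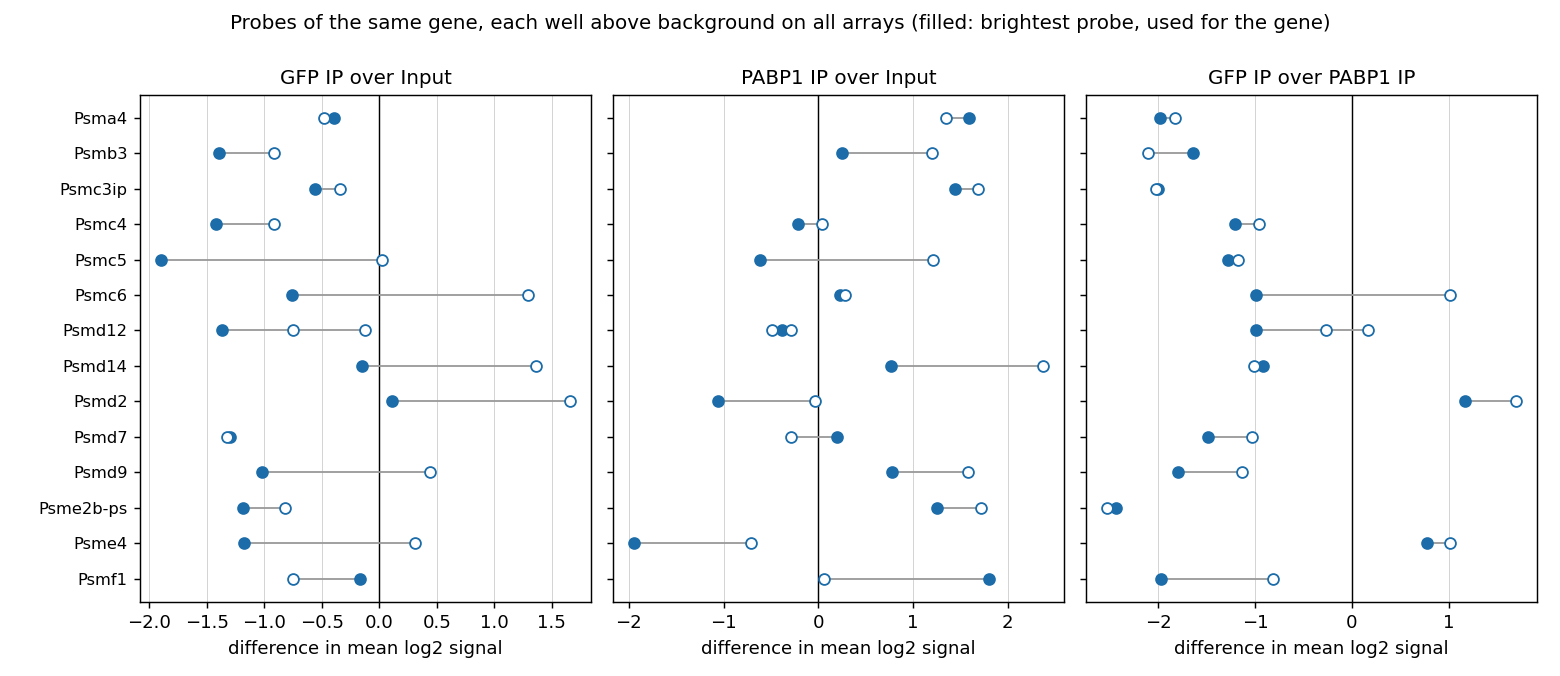
Differences in mean log2 signal for the 14 members with at least 2 probes that were well above background on all arrays, 1 panel per comparison; filled points are the brightest probe, open points the other probes of the gene. In the left panel 5 genes have points on both sides of 0, and in the right panel 2.

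Other genes around the proteasome were counted from lists, to be read against the shares of all tested genes: 21.4% higher and 43.3% lower in GFP IP over Input, 34.3% and 25.4% in PABP1 IP over Input, and 23.9% and 47.4% between the IPs. Of 12 tested partners that carry other names (assembly, adaptor and regulatory factors), 3 were higher and 5 lower in GFP IP over Input, 5 higher and 2 lower in PABP1 IP over Input, and 3 higher and 5 lower between the IPs. Pomp, the maturation factor of the core particle, was at 0.69 in PABP1 IP over Input (adjusted p = 0.00361) and −0.66 in GFP IP over Input (adjusted p = 0.00254). The small lid subunit listed as Shfm1 was at 1.43 (adjusted p = 0.00493) and −0.80 (adjusted p = 0.0338). The cap-bound deubiquitinase Usp14 was at −1.11 (adjusted p = 0.00145) and 0.04 (adjusted p = 0.821), and Zfand5, which binds and stimulates proteasomes, at 0.04 (adjusted p = 0.862) and 2.68 (adjusted p = 3.42e-05).

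Of 10 tested ubiquitin receptors and shuttles, 2 were higher and 5 lower in GFP IP over Input, and 2 higher and 3 lower in PABP1 IP over Input. Of 5 ubiquitin and ubiquitin-activation genes, none was higher and 3 were lower in GFP IP over Input, and none was higher and 1 was lower in PABP1 IP over Input. Of 10 tested regulators of proteasome genes, 5 were higher and 1 was lower in GFP IP over Input, and 3 were higher and 3 lower in PABP1 IP over Input. Nfe2l1, the transcription factor that raises proteasome gene expression when proteasomes are impaired, was at 0.56 in GFP IP over Input (adjusted p = 0.0293) and −1.06 in PABP1 IP over Input (adjusted p = 0.00322). Of 10 tested genes of class I antigen processing, which uses immunoproteasome products, 2 were higher and 1 was lower in GFP IP over Input, and 1 was higher and 2 were lower in PABP1 IP over Input.

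The cultures also held feeder fibroblasts. All 8 ES cell markers were detected, with 4 higher and 2 lower in GFP IP over Input and 3 higher and 1 lower in PABP1 IP over Input. Of 30 fibroblast markers 29 were tested (Pdgfra was not well above background on every array of any group). In GFP IP over Input 3 were higher and 19 lower, in PABP1 IP over Input 15 were higher and 3 lower, and between the IPs 3 were higher and 22 lower. The shares of all tested genes, higher and lower in the same order, were 21.4% and 43.3%, 34.3% and 25.4%, and 23.9% and 47.4%. The fibroblast medians were −1.01, 0.68 and −1.57, against −0.78, 0.75 and −1.52 for the 44 members and −0.51, 0.24 and −0.67 for all tested genes. Medians of the 8 ES cell markers were 0.30, 0.24 and 0.33, and between the IPs 4 of them were higher and 2 lower. The summed linear level of the fibroblast markers, in units of each array's 75th percentile, was 396 to 488 on Input, 638 to 727 on PABP1 IP and 197 to 259 on GFP IP, against 2199 to 4178, 2023 to 3931 and 1465 to 1986 for the ES cell markers. The ES cell sum leaned on its brightest marker, listed as Dppa5 (log2 11.84 on Input array 1, next Klf4 at 8.34). Dppa5 was at −1.32 in GFP IP over Input, whereas 4 of the 8 markers were higher there. The medians of the fibroblast markers, the proteasome members and all tested genes had the same sign in all 3 comparisons. The ES cell marker median had that sign only in PABP1 IP over Input. The part of the fibroblast markers in the result was not tested. These are bulk samples, and which cells the recovered RNA came from was not measured.

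The arrays lay on 2 slides, each holding all 3 groups, and arrays of a slide deviated from their group means together. The number of members lower in GFP IP over Input was 33 with slide as a block, 27 on slide 1 alone and 24 on slide 2 alone, against 50.9%, 39.8% and 37.4% of all tested genes. The number higher in PABP1 IP over Input was 30, 23 and 23, against 43.2%, 35.0% and 31.2%. The number lower between the IPs was 37 in each, against 55.8%, 45.5% and 47.5%. With the normexp correction, members higher and lower numbered 9 and 1 in PABP1 IP over Input (11.2% and 4.41% of all tested genes) and, between the IPs, 0 and 27 (7.60% and 21.1%). The 9 members higher in PABP1 IP over Input under that correction were Psma3, Psma4, Psma6, Psmb1, Psmb2, Psmb10, Psmd8, Psmd10 and Psmf1, and the 1 lower was Psmd1.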

How the data were processed

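RNA of 8 samples (3 Input, 2 PABP1 IP, 3 GFP IP) was measured on 1-colour Agilent arrays of design 014868. The deposited intensity of each spot was made by the authors with protocol GE1-v5_95_Feb07 of Feature Extraction 9.1.3.1, which had already subtracted background, per the file headers. A second deposited file holds the authors' mean intensity per group, and no source used here states its scaling. For each array, the 75th percentile of log2 processed signal over 43379 non-control spots was subtracted, without any additional floor. Spots of a probe were averaged to 41174 probes, and 32 probes with an outlier spot, none of a member, were left out. The gene key was the array's own name, and the brightest probe stood for a gene. Of the 44 names, 40 matched RefSeq (GRCm38.p6) by accession and 4 by symbol or synonym. No probe or protein sequence was used here.

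A gene was tested if, in at least 1 group, its probe was well above background on all arrays. The two-sided test used the lmFit and eBayes functions of limma 3.58.1 (R 4.3.3) on 8 arrays, with 5 residual and 2.10 prior degrees of freedom and Benjamini-Hochberg adjustment; the data.table package (1.17.8) was used for reading and matplotlib 3.10.9 in Python 3.11.15 for plots. The fit was tested on simulated data. The number of arrays limits the precision. Members and gene lists were chosen with earlier results of these data known. Members named with values were the 5 highest and 5 lowest in each comparison, the catalytic, inducible and tissue forms, activators, inhibitor, chaperones and those with probes of opposite sign; Psma4, Psma7, Psmd4, Psmd11, Psmc2, Psmc3, Psmd5 and Psmd10 and the named list genes were chosen after their values were seen. Alternatives changed the background correction, scaling, dim-probe filter, probe, gene key, slide, replicate number and arrays used.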

Additional observations from a re-analysis of the deposited data

How the results depend on the processing

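The number of arrays (2 in the PABP1 IP) and dim probes near background limit these comparisons, and no control IP was analysed here. The cause of each change below was not tested. Member counts below are given without the shares of all tested genes under the same setting. Deviations of same-numbered arrays correlated at 0.520 to 0.622 where they shared a slide and at −0.737 to −0.292 where they did not. The sign followed the slide, so whether same-numbered samples belong together could not be told from these values. Deviations of the 2 PABP1 IP arrays from their mean are mirror images by construction, so signs that involve them are not independent. With the replicate number as a block, members higher and lower were 2 and 29 in GFP IP over Input, 25 and 6 in PABP1 IP over Input, and 4 and 37 in GFP IP over PABP1 IP, and the core minus cap median of the last was −0.92.

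In GFP IP over Input, 2 members were higher; 1 was with normexp or on slide 2 alone, 4 with median scaling, quantile normalization or the mean of a gene's probes, and 6 with the dimmest detected probe of each member (an alternative chosen after seeing the data). The 29 lower became 4 with normexp and 14 with median scaling. The core minus cap median of −0.13 was −0.022 with normexp, −0.22 with probe means, −0.033 with the slide block, −0.17 on slide 1, −0.32 with the dimmest probes and −0.19 to −0.0058 without single arrays, and turned to 0.011 with quantile normalization and 0.068 on slide 2.

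In PABP1 IP over Input, 26 higher became 9 with normexp and 17 with quantile normalization, and 6 lower became 1 and 13. The core minus cap median of 0.73 was 0.64 with normexp, 0.90 with probe means, 0.63 on slide 2, 0.60 with the dimmest probes, 0.45 in the authors' deposited table (0.50 here on the 15 core and 13 cap genes it holds) and 0.68 to 0.78 without single arrays.

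In GFP IP over PABP1 IP, 4 higher became 0 with normexp (limma; also 0 at an unadjusted p under 0.05) and 2 to 5 without single arrays. The core minus cap median of −0.84 was −0.69 with normexp, −0.33 with quantile normalization, −0.76 for genes well above background on all arrays, −0.88 with probe means, −0.89 with the slide block, −0.90 on slide 1, −0.88 with the dimmest probes and −0.90 to −0.60 without single arrays.

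Members that turned sign did so with scaling or probe choice. With median scaling, GFP IP over Input was 0.038 for Psma1 and 0.0037 for Psmd11. With quantile normalization it was 0.24 for Psmd3, PABP1 IP over Input was −0.055 for Psma2, −0.56 for Psmb3, −0.45 for Psmb4, −0.65 for Psmb5, −0.10 for Psmc2 and −0.40 for Psme1, and GFP IP over PABP1 IP was 0.25 for Psma2 and 0.020 for Psmb6. With probe means, GFP IP over Input was 0.27 for Psmc6 and 0.61 for Psmd14, PABP1 IP over Input −0.0697 for Psmc2, 0.30 for Psmc5, −1.06 for Psmd4 and −1.26 for Psmd7, and GFP IP over PABP1 IP 0.0090 for Psmc6. With the dimmest probes, GFP IP over Input was 0.028 for Psmc5, 1.29 for Psmc6, 1.36 for Psmd14, 0.44 for Psmd9 and 0.31 for Psme4, PABP1 IP over Input 1.21 for Psmc5, and GFP IP over PABP1 IP 1.01 for Psmc6.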
